A study of Mus musculus with 22 samples.

Results

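Layer V cortical neurons were compared with 3 other neuron types of the mouse brain through the messenger RNA bound to tagged ribosomes. The 3 libraries of layer V neurons, of 22 in the series, were chosen by their labels, 1 for each of 3 replicates, and were set against 9 libraries: 3 of dentate gyrus granule cells, 3 of cerebellar granule cells and 3 of inhibitory interneurons. The series also held astrocytes and microglia, used here only as a level of glial transcripts. All animals were 6 weeks old and carried 1 floxed copy of Rpl22 (genotype Rpl22 Fl/+, bred from B6N.129-Rpl22tm1.1Psam/J females) with a Cre driver: Rbp4-Cre in cortex for layer V neurons, the same Rbp4-Cre in hippocampus for dentate gyrus granule cells, Gabra6-Cre in cerebellum, and Dlx6a-Cre in hippocampus for interneurons. Each interneuron library pooled the hippocampi of 2 mice. The cells of a library were thus set by where the driver acted in the dissected tissue, so that brain region and cell type cannot be told apart in any of the comparisons, nor driver and cell type in those with the cerebellum and with interneurons, and any other cells of the cortex in which Rbp4-Cre was active are part of the layer V libraries.

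In RiboTag mice, Cre swaps the last exon of the ribosomal protein gene Rpl22 for a copy with an HA tag, and an antibody to HA then pulls down ribosomes of the Cre-expressing cells with the mRNA they hold. Layer V is the main output layer of the neocortex. Its pyramidal cells fall into extratelencephalic neurons, which send thick axons to brainstem and spinal cord and are known for the transcription factors Bcl11b (Ctip2) and Fezf2; intratelencephalic neurons, which connect cortical areas and striatum and are known for Etv1; and near-projecting neurons. Granule cells of the dentate gyrus and of the cerebellum are small excitatory neurons, and interneurons release GABA.

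Estimated counts per library lay between 38270477 and 66185898 in the 12 libraries and between 53999691 and 65977155 in the layer V neurons. Over log2(CPM + 1), where CPM is the count of a gene per 1000000 counts, scaled by TMM factors, the layer V libraries correlated with each other at 0.9980 or more, with the dentate gyrus at 0.942 to 0.954, with interneurons at 0.942 to 0.943 and with cerebellar granule cells at 0.858 to 0.863. The third principal component (13.3% of the variance) separated them, at -89.9 to -88.3 against -7.74 to 70.9 for the other neurons. The layer V, dentate gyrus and cerebellar libraries compared came from batch 1 and the interneuron libraries from batch 2, but 1 replicate each of layer V, dentate gyrus and cerebellar cells was sequenced again in batch 2. With these libraries in place and batch as a term, 7400 genes were called higher in layer V neurons and 6350 lower, against the 7354 and 6404 reported below. Values within batch 1, which leave out the interneurons, are given beside some results. Layer V replicate 1 in batch 2 correlated with its batch 1 library at 0.9992. The 2 libraries of this replicate carry different sex labels. The batch 2 library, labelled male, had 12.13 CPM of the female-specific transcript Xist and 0.04 CPM of the Y-linked Ddx3y, near the 12.41 and 0.14 CPM of the batch 1 library labelled female, so that the label of the batch 2 library goes against its transcripts. That library entered none of the results below unless stated.

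The 2 genes usually taken as marks of layer V, Bcl11b and Etv1, were abundant in the layer V libraries, but neither was highest there (the plot of layer markers by library). Bcl11b (ENSMUSG00000048251.15, GRCm38 chr12:107910403-108003602, minus strand), a zinc finger factor of subcortical projection neurons, was at 161, 152 and 156 CPM in layer V neurons, 537.5, 518 and 457 CPM in dentate gyrus granule cells, 79.4, 79.9 and 92.2 CPM in interneurons, and 0.412, 0.579 and 0.365 CPM in cerebellar granule cells. The layer V libraries lay above all interneuron and cerebellar libraries and below all dentate gyrus libraries. Against the mean of the 3 types it stood 2.55 log2 units higher (standard error 0.07, adjusted p = 1.9e-12, edgeR), with differences of -1.69 against the dentate gyrus alone and 0.90 against interneurons alone. Etv1 (ENSMUSG00000004151.17, chr12:38779380-38870484, plus strand), an ETS factor of intratelencephalic layer V cells, was at 222, 238 and 252 CPM in layer V neurons, 69.9, 77.8 and 81.5 CPM in the dentate gyrus, 18.5, 18 and 17 CPM in interneurons, and 1619, 1678 and 1711 CPM in cerebellar granule cells. The layer V libraries thus lay between those of the cerebellum and all others. Its log2 fold change of 0.85 (standard error 0.05, adjusted p = 2e-09, edgeR) turned to -0.62 within batch 1, where the interneurons, low for Etv1, are left out.

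**Figure D1:**
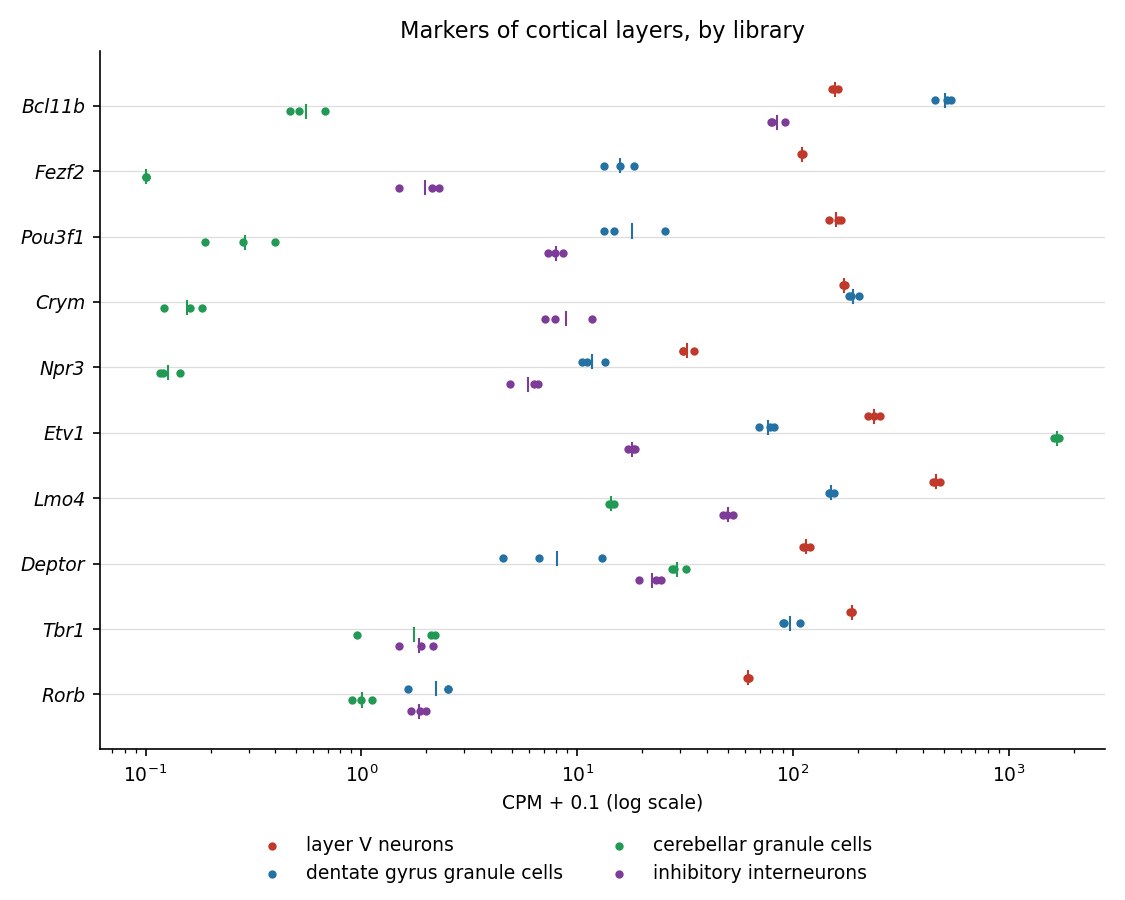
Levels of 10 layer markers in each library, as CPM plus 0.1 on a log axis. Each point is a library, coloured by cell type, and each short line is the mean of 3 libraries. For Fezf2, Pou3f1, Npr3, Lmo4, Deptor, Tbr1 and Rorb the 3 layer V libraries sit to the right of the other 9. Bcl11b and Crym reach further right in the dentate gyrus and Etv1 in cerebellar granule cells.

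The promoters of both marks are shown, from 250 bases before to 50 bases after an annotated start in RefSeq (GRCm38.p6), with those of Dkkl1 and Tnnc1, the 2 protein-coding genes of at least 10 CPM with the widest gap between layer V and every other neuron type (below). All read 5' to 3' on the gene's strand. Capitals mark CAGATG on either strand, the E-box bound by basic helix-loop-helix factors of the NeuroD family.
Bcl11b, chr12:108003365-108003664, minus strand: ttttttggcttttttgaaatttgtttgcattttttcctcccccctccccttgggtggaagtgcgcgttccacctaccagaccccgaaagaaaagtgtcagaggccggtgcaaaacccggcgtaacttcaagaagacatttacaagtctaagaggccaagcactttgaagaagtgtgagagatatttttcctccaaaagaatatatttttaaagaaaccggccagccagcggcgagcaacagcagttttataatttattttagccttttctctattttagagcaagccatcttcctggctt
Etv1, chr12:38783461-38783760, plus strand: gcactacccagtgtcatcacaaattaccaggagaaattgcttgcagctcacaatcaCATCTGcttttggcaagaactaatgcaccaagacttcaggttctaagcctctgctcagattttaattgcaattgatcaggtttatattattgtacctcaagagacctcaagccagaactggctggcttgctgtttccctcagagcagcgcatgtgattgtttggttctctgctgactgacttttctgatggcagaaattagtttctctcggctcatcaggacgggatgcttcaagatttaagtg
Dkkl1, chr7:45211834-45212133, minus strand: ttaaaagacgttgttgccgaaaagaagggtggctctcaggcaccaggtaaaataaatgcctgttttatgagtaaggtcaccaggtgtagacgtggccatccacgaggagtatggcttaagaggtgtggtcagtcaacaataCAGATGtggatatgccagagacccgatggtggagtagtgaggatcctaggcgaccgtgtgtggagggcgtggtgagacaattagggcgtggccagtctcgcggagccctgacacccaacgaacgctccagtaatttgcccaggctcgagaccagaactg
Tnnc1, chr14:31208062-31208361, plus strand: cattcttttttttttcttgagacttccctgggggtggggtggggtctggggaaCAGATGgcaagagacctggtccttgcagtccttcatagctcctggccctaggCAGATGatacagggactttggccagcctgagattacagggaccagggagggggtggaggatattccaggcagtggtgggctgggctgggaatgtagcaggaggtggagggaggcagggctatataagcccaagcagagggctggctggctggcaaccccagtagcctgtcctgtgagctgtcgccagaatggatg
The Etv1 start shown is the one of 2 in the table that held the motif, on the reverse strand as CATCTG. Dkkl1 held it once, starting at base 142 of the window, and Tnnc1 held it at bases 54 and 106. Among genes set apart as higher in layer V neurons (defined below), 209 of the 1092 with a promoter in the table held CAGATG (19.1%), against 93 of 646 set apart as lower (14.4%) and 1955 of 12989 genes tested (15.1%). The CREB site TGACGTCA was in 2.29%, 2.63% and 3.26% of the same promoters and the MEF2 site CTATTTAT in 1.19%, 1.08% and 0.947%. These shares describe the letters in the windows and were not tested.

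Some of the other layer 5 markers separated layer V neurons from all other types and some did not. Of 10 extratelencephalic markers, Bcl11b included, 9 were called higher and 1 lower in layer V neurons, with a median log2 fold change of 4.30, and 6 lay above all 9 other libraries. Their sum was 724.1 to 739.5 CPM in layer V neurons and 790.2 to 875.2 CPM in the dentate gyrus. Lratd2, at a mean of 15.98 CPM against 74.59 CPM in the dentate gyrus, and Slco2a1, a prostaglandin transporter called lower at 1.735 CPM against 17.63 CPM in the cerebellum, were among those that did not separate the types. Of 8 intratelencephalic markers, Etv1 included, 8 were called higher, with a median of 3.01, and 5 lay above all other libraries. Whrn, which encodes the scaffold protein whirlin, had a mean of 68.18 CPM against 112.6 CPM in interneurons, and Batf3, a leucine zipper factor, was near that of the dentate gyrus (0.9631 against 0.8471 CPM). Over all 18587 genes tested, 7354 were called higher (39.6%) and 6404 lower (34.5%) at an adjusted p of 0.05 (edgeR), with a median log2 fold change of 0.05. Fezf2 (chr14:12342094-12348189), the factor that specifies subcortical projection neurons, was at 109, 111 and 110 CPM in layer V neurons, 13.2, 15.7 and 18.2 CPM in the dentate gyrus, 2.03, 1.4 and 2.19 CPM in interneurons and 0 in the 3 cerebellar libraries. It was at least 1869-fold higher than in the cerebellum, counting 3 reads per library as the limit there, and 2.81 log2 units above the dentate gyrus (standard error 0.13). Pou3f1, a POU factor of corticospinal neurons, was at 161, 167 and 147 CPM against at most 25.4 CPM in any other library. Crym, a thyroid hormone binding protein, was at 171, 174 and 173 CPM in layer V neurons but at 181, 202 and 186 CPM in the dentate gyrus, so that it did not separate the 2 types that share Rbp4-Cre.

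Most markers of other cortical layers and of near-projecting neurons were called higher too, and their medians were largest against the cerebellum. Of 11 upper layer markers 9 were called higher and 1 lower (median 2.76), with medians of 6.18 against the cerebellum, 0.63 against the dentate gyrus and 1.03 against interneurons. Their sum was 658.7 to 691.4 CPM in layer V neurons and overlapped that of interneurons, at 669 to 681.9 CPM. Rasgrf2, an exchange factor for small GTPases, was at a mean of 65.23 CPM against 285 CPM in the dentate gyrus and 216.4 CPM in interneurons, and Cux2, a homeobox factor, at 83.86 CPM against 184.6 CPM in interneurons. Of 9 markers of layers 6 and 6b 7 were higher and 2 lower (median 1.66), with medians of 3.84, 1.68 and 0.55 against cerebellum, dentate gyrus and interneurons. Of 5 near-projecting markers 5 were higher (median 2.93, but 0.20 against the dentate gyrus). Rorb, a nuclear receptor best known from layer 4 and also present in layer 5 and in astrocytes, was at 60.9, 62.2 and 61.8 CPM in layer V neurons and at most 2.42 CPM in the other neurons, with a log2 fold change of 5.36 (standard error 0.09, adjusted p = 2.3e-14, edgeR). Astrocyte libraries held 161 CPM of it on average. Lamp5, an upper layer and interneuron gene, was at 286, 308 and 287 CPM, with a mean of 143 CPM in interneurons. Ntsr1, the neurotensin receptor of layer 6 corticothalamic cells, was at 15.2, 15.6 and 12.7 CPM against means of 3.88 CPM in the dentate gyrus and 5.26 CPM in interneurons. Of 20 transcription factors of telencephalic excitatory neurons, 17 were called higher and 2 lower, with a median of 2.36 that was 5.68 against the cerebellum and 0.59 against the dentate gyrus. Tbr1, a T-box factor of deep layers, was at 188, 188.5 and 184 CPM against 91.2, 89.9 and 108 CPM in the dentate gyrus. Neurod6 was at 140.4, 134 and 143 CPM against 14.3, 15.3 and 32.7 CPM there. Dentate gyrus replicate 3 held the highest dentate gyrus value for Neurod6, Pou3f1 and Deptor, and no layer V library overlapped it. Markers of the types compared were lower than in their own libraries but not all near 0. Summed over 10 members, cerebellar granule cell markers reached 73.12 to 80.98 CPM in layer V neurons against 17133 to 17483 CPM in the cerebellum, and 16 interneuron markers reached 182.6 to 202.8 CPM against 7992 to 8256 CPM in interneurons. The 10 dentate gyrus markers summed to 513.4 to 528.4 CPM in layer V neurons, 3208 to 3742 CPM in the dentate gyrus, 339.6 to 375 CPM in interneurons and 130.8 to 136.2 CPM in the cerebellum, and 4 were called higher and 6 lower. C1ql3, a secreted synaptic protein, had a mean of 274.9 CPM in layer V neurons against 596.4 CPM in the dentate gyrus.

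The mean of the 3 types is a mean on the log scale, so 1 type near 0 can decide it. C1ql2, a dentate gyrus gene, was called higher (log2 fold change 2.24) at 10.6, 17.4 and 15.1 CPM in layer V neurons against a mean of 529 CPM in the dentate gyrus, since cerebellar granule cells held 0.01225 CPM. Genes were therefore called set apart only where all 3 layer V libraries lay above, or below, all 9 other libraries, with a log2 fold change of at least 1 in size that passed the test at 0.05. This held for 1666 higher genes (8.96% of those tested) and 905 lower genes (4.87%). Of these, 581 higher and 554 lower genes were protein coding with a mean of at least 10 CPM, in layer V neurons or in the other neurons respectively. The type nearest to layer V neurons was the dentate gyrus for 270 of the 581, interneurons for 261 and the cerebellum for 50. The log2 fold change against that nearest type, called the margin here, was at least 2 for 68 higher and 23 lower genes. The named genes below have the largest margins, a choice made on the same values, so that they are a description of the extremes. Of the 581, 438 also lay above all 6 astrocyte and microglia libraries. The split between higher and lower depended on the unit. By limma on log2(TPM + 1), the length-normalized transcript level (transcripts per 1000000), 4545 genes were higher and 9042 lower, so that 33.5% of calls were higher, against 53.5% by edgeR. Together Mir6236, Gm24270, Gm23935, Gm24245 and Gm42418, non-coding genes named after their values were seen, held 12.5% to 15.3% of TPM in layer V neurons and 5.7% to 17.1% in the other neurons, and TMM scaling is not carried over to TPM. Their part in this shift was not tested.

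Among the leading genes were some that encode muscle-type calcium and myosin proteins. Dkkl1 (chr7:45207519-45212147), which encodes a secreted relative of the Dickkopf Wnt inhibitors, was at 59.1, 62.8 and 58 CPM in layer V neurons. The dentate gyrus libraries held 0.163, 0.52 and 1.78 CPM and no other neuron library exceeded 0.152 CPM. Its margin was 6.15 (standard error 0.38), against the dentate gyrus. Tnnc1 (chr14:31208312-31211729), the slow and cardiac troponin C, was at 38.5, 39.9 and 33 CPM against at most 0.994 CPM in the other neurons (margin 5.56, standard error 0.20). Myl4 (chr11:104550663-104595753), an atrial and embryonic myosin light chain, was at 60.7, 63.5 and 52.6 CPM against at most 1.54 CPM (margin 5.42, standard error 0.17). For each of these the layer V libraries differed among themselves by far less than the gap to the next library, and the batch 2 library of replicate 1 held 58.9, 37.5 and 61.3 CPM of them in that order. Dtl, which encodes a substrate receptor of a ubiquitin ligase, was at 20.4, 21.5 and 19.4 CPM against at most 0.513 CPM.

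A pair of the leading genes encode neuropeptides. Adcyap1, the precursor of PACAP, was at 64.1, 69.6 and 56.3 CPM in layer V neurons, 1.24, 4.08 and 2.55 CPM in the dentate gyrus and at most 0.355 CPM in cerebellar granule cells and interneurons (margin 4.64, standard error 0.26). Trh, the precursor of thyrotropin-releasing hormone, was at 34.8, 32.7 and 39.5 CPM against at most 2.6 CPM elsewhere, and at 0 in the 3 cerebellar libraries, over which it was at least 604-fold higher. The others were Ccdc3 (23.5 to 25.2 CPM), Tgm3, a transglutaminase (12.4 to 15.1 CPM), Ovol2, a zinc finger repressor (12.7 to 17.1 CPM), Igfn1 (20.95 to 23.9 CPM) and Susd5 (22.4 to 26.9 CPM), with margins of 4.37, 4.29, 4.23, 4.01 and 4.00. Of the 12, Rorb was higher in astrocytes than in layer V neurons. The other 11 had means below their layer V level in both glial types, with Igfn1 nearest at 19.9 CPM in microglia.

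**Figure D2:**
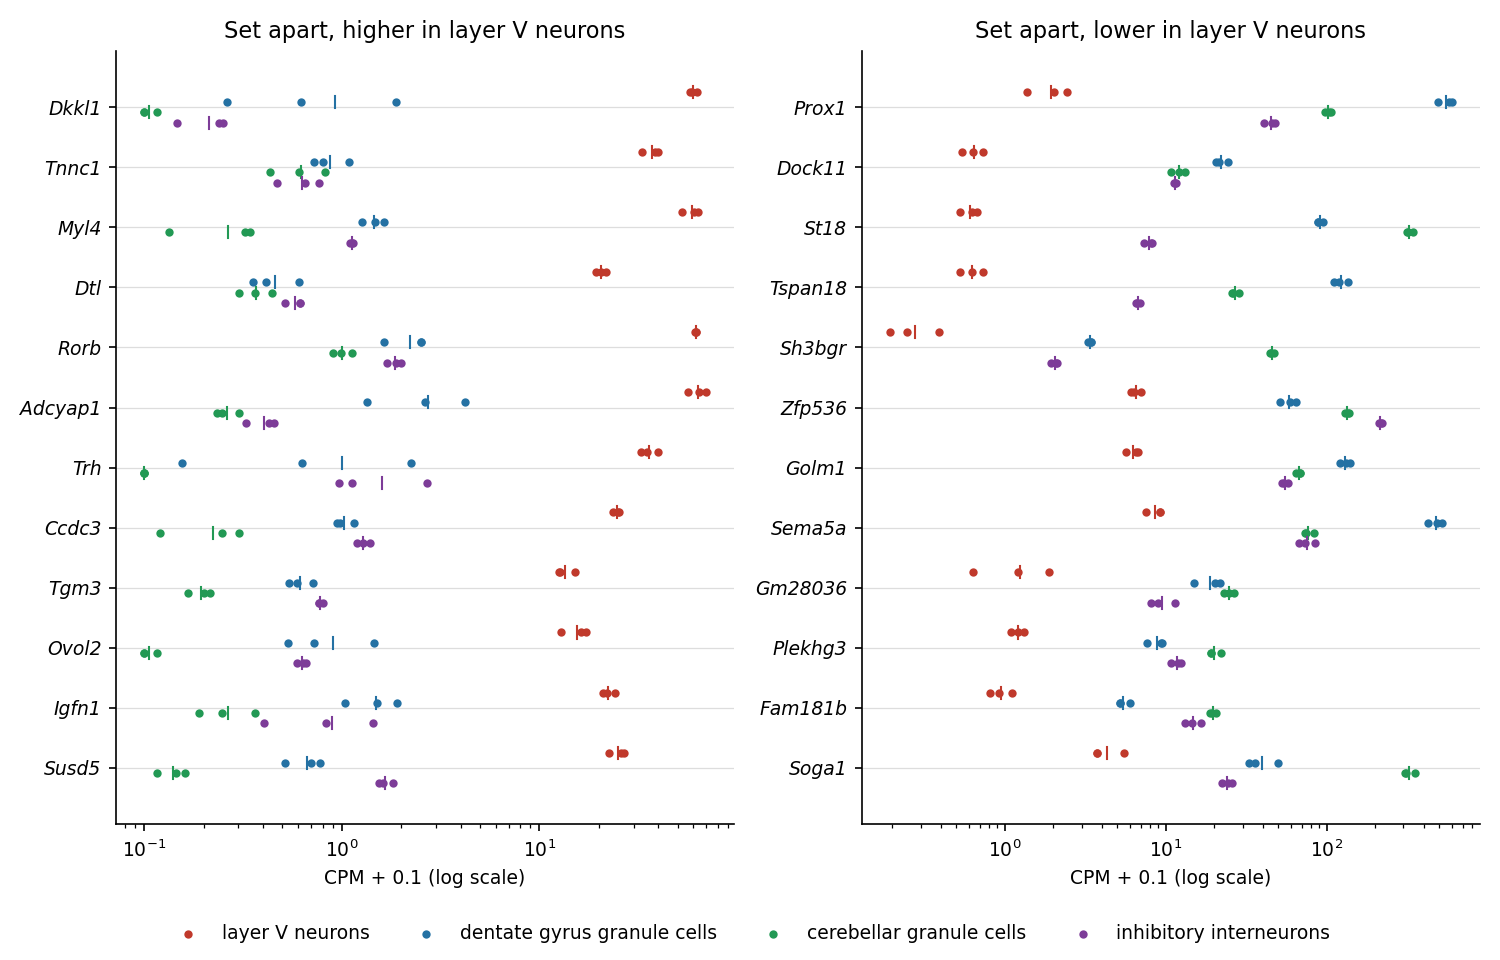
Levels of the 12 higher (left) and 12 lower (right) protein-coding genes with the largest margins, as CPM plus 0.1 on a log axis. Points are libraries and short lines are means of 3, coloured by cell type. On the left the layer V libraries are the rightmost points of each row and on the right the leftmost, as the choice of these genes requires.

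The 12 genes lower in layer V neurons with the largest margins included the transcription factors Prox1, St18 and Zfp536. Prox1 (chr1:190118035-190170714), the homeobox factor that dentate gyrus granule cells need, was at 1.91, 1.27 and 2.32 CPM in layer V neurons, 597.5, 573 and 494 CPM in the dentate gyrus, 97.8, 103 and 106 CPM in the cerebellum and 40.6, 47.6 and 45.9 CPM in interneurons. Its margin was -4.63 (standard error 0.15), against interneurons. St18, a zinc finger factor of the Myt1 family, was at 0.426, 0.53 and 0.576 CPM against 7.19 CPM or more in the other 9 libraries and 314 to 345 CPM in the cerebellum. Zfp536, a zinc finger repressor, was at 6.89, 6.29 and 6 CPM against 51.55 to 219 CPM. Dock11, an activator of small GTPases, was at 0.446 to 0.636 CPM against 10.7 to 24.4 CPM, and microglia held 40.04 CPM. Sema5a, a semaphorin that guides axons, was at 9.1, 7.42 and 9.09 CPM in layer V neurons and 519, 482.5 and 424 CPM in the dentate gyrus, with 67.3 to 84.7 CPM in the other types. Golm1, a Golgi membrane protein, was at 5.54 to 6.62 CPM against 52.8 to 139 CPM in the neurons and 743 CPM in microglia. The remaining genes were Tspan18, Sh3bgr, Plekhg3, Fam181b, Soga1 and Gm28036, with margins of -3.63, -3.39, -2.98, -2.67, -2.51 and -3.04. Fam181b stood at 185.5 CPM in astrocytes, and Gm28036 overlaps Cpne1, Rbm12 and Nfs1 in the annotation, so that its reads are uncertain. In bulk libraries such as these, fewer cells that hold a transcript and less of it per cell cannot be told apart.

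Gene lists by role are described by their counts and medians beside those of all genes (39.6% higher, 34.5% lower, median 0.05), with no test of a list (the plot of gene lists). Of 36 lists, 3 had a median over 1 against each of the 3 types: the extratelencephalic and intratelencephalic layer 5 lists and the activity-regulated genes. The list of near-projecting neurons, also cells of layer V, did not, with a median of 0.20 against the dentate gyrus. Of 25 activity-regulated genes, 19 were called higher and 2 lower, and 13 were set apart as higher. Their medians were 1.59 against the dentate gyrus, 1.19 against the cerebellum and 1.83 against interneurons. Egr3, an immediate early zinc finger factor, was at 252, 253 and 301 CPM against 187, 184 and 178 CPM in the dentate gyrus, at most 20.3 CPM in interneurons and a mean of 0.532 CPM in the cerebellum. Nptx2, a secreted pentraxin that clusters AMPA receptors, was at 115, 112 and 118 CPM against a mean of 25.9 CPM in the dentate gyrus. Fosb, an AP-1 subunit, was at 53.2, 43.9 and 43.01 CPM and Egr2 at 10.4, 6.07 and 4.7 CPM, against means of 13.2 and 0.663 CPM in the dentate gyrus. Both were highest in layer V replicate 1, and every layer V library lay above the other 9. Dusp6, a phosphatase of ERK kinases, was at 78.3, 66.1 and 64.1 CPM against means of 4.20 to 12.3 CPM.

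The value of Klf10, a zinc finger factor on the same list, rested on 1 short transcript. The gene was at 980, 1041 and 1431 CPM in layer V neurons against 661 to 899 CPM in the cerebellum and 42.2 to 113 CPM in the other types (log2 fold change 2.81, standard error 0.13, adjusted p = 3.3e-10, edgeR). On the scale of all 22 libraries replicate 1 held 934 CPM in batch 1 and 452 CPM in batch 2. A single transcript of 326 bases, of 6 annotated, held 99.7% to 99.9% of the gene's TPM in layer V neurons. The other transcripts together held 32.2, 25.4 and 22.9 TPM there. They held 15.4 to 23.4 TPM in the dentate gyrus, 19.3 to 21.3 TPM in the cerebellum and 2.32 to 3.18 TPM in interneurons. Of 8902 genes with at least 10 CPM in both runs of layer V replicate 1, Klf10 was among 4 that differed by more than 2-fold.

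**Figure D3:**
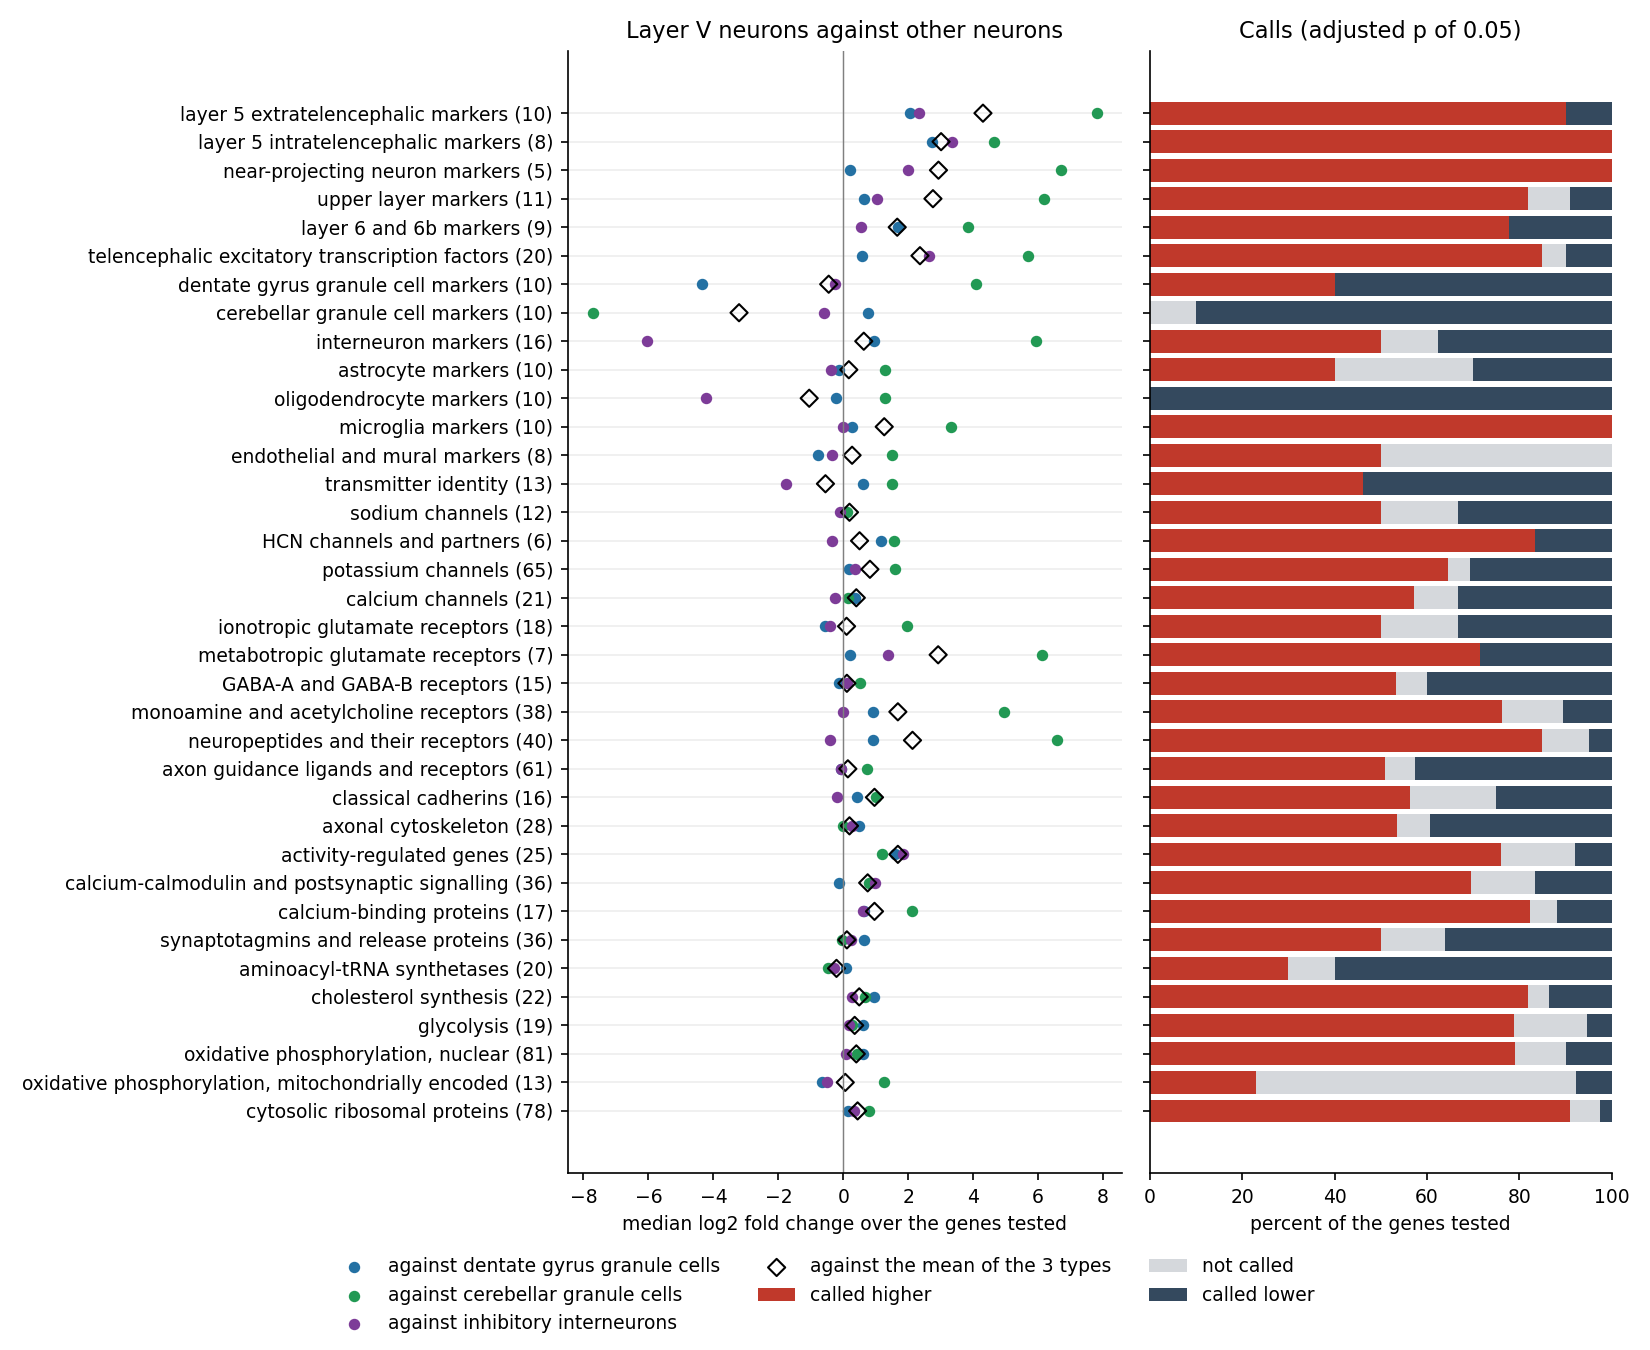
Each row is a gene list, with the number of genes tested in parentheses. The left panel gives the median log2 fold change of layer V neurons against each type (coloured points) and against their mean (diamonds), and the right panel the percent of genes called higher, lower or neither. The medians against the cerebellum spread widest. Those of the layer 5 extratelencephalic, layer 5 intratelencephalic and activity-regulated lists lie above 1 for every type.

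Receptors and peptides were higher in layer V neurons mainly against cerebellar granule cells. Of 38 monoamine and acetylcholine receptor genes tested (of 39 listed, Drd3 was not tested), 29 were called higher and 4 lower, with medians of 4.94 against the cerebellum, 0.92 against the dentate gyrus and -0.02 against interneurons. Adra1b, the alpha-1B adrenergic receptor, was at 50.3, 47.7 and 46.2 CPM against means of 24.9 CPM in interneurons, 0.985 CPM in the dentate gyrus and 0.104 CPM in the cerebellum (log2 fold change 5.12, standard error 0.06, adjusted p = 1.1e-15, edgeR). Htr2a, the serotonin 2A receptor, was at 33.7, 40.03 and 35.8 CPM, with a mean of 36.4 CPM in interneurons and 1.66 CPM in the dentate gyrus. Hrh1, the histamine H1 receptor, was at 20.4, 20.6 and 18.7 CPM against means of 6.19 CPM or less. Of 40 neuropeptide and peptide receptor genes tested (of 41 listed), 34 were called higher and 2 lower, with medians of 6.58 against the cerebellum, 0.92 against the dentate gyrus and -0.41 against interneurons. Fitted values of genes near 0 in the cerebellum depend on the prior count of the fit. With types at 0 set to 3 counts per library, the median against the mean of the types went from 2.13 to 1.74. Cck, the precursor of cholecystokinin, was at 788, 790.4 and 719 CPM against a mean of 319 CPM in interneurons and 215 CPM in the dentate gyrus. Its receptor gene Cckbr was at 62.6, 60.3 and 66.01 CPM against means of 13.4, 3.502 and 0.11 CPM in interneurons, dentate gyrus and cerebellum, with no overlap of libraries. Sst and Npy, peptides of interneurons, were called higher by the mean of the types while lying far below the interneurons: Sst was at 91.98, 89.3 and 79.1 CPM in layer V neurons and at 1457 CPM on average in interneurons.

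Of 13 genes of transmitter identity, 6 were called higher and 7 lower (median -0.55), with medians of 0.62 against the dentate gyrus and -1.75 against interneurons and one above 0 against the cerebellum. Slc17a7, the vesicular glutamate transporter VGLUT1, was at 2417, 2348 and 2325 CPM in layer V neurons, 1499, 1566 and 1552 CPM in the dentate gyrus, 1387, 1345 and 1266 CPM in the cerebellum and 52.4, 53.01 and 59.8 CPM in interneurons, with no overlap (log2 fold change 2.29, standard error 0.04, adjusted p = 2.9e-14, edgeR). Gad1, which makes GABA, was at 26.8, 22.8 and 22.2 CPM against 198, 197 and 180.5 CPM in the dentate gyrus and 2711, 2681 and 2606 CPM in interneurons, so that the dentate gyrus, an excitatory type, lay above layer V neurons too.

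Ion channels moved in both directions. Of 65 potassium channel genes, 42 were called higher and 20 lower (median 0.82), 15 were set apart as higher and 5 as lower. The silent subunits Kcnf1 and Kcnv1, which modify other potassium channels, were higher: Kcnf1 was at 305, 292 and 316 CPM against 115, 119 and 116 CPM in the dentate gyrus, 36.5 to 38.2 CPM in interneurons and 0.03 CPM on average in the cerebellum. Kcnv1 was at 94.6, 91.9 and 109 CPM against 30.1, 29.9 and 30.5 CPM in the dentate gyrus and less elsewhere. Kcnc1, a fast subunit of the Shaw type, was lower, at 92.7, 85.9 and 86.9 CPM against 185, 189 and 188 CPM in the dentate gyrus, 914, 855 and 847 CPM in interneurons and 1414, 1445 and 1418 CPM in the cerebellum (log2 fold change -2.80, standard error 0.04, adjusted p = 7.2e-15, edgeR). Of 12 sodium channel genes 6 were higher and 4 lower. Scn4b, the subunit tied to resurgent sodium current, was at 185, 164 and 173 CPM against 38.9, 44.7 and 81.6 CPM in interneurons and at most 26.2 CPM in the other types. Of 6 genes of HCN channels and their partners 5 were called higher. Pex5l (TRIP8b), a partner protein of these channels, was at 229, 215 and 234 CPM against means of 124 CPM or less. Of 21 calcium channel genes 12 were higher and 7 lower (median 0.40), with Cacng3, an AMPA receptor auxiliary subunit, at 176, 171 and 177 CPM against means of 82.1, 76.9 and 0.135 CPM in interneurons, dentate gyrus and cerebellum.

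Glutamate receptor genes differed in direction between the types compared. Of 18 ionotropic glutamate receptor genes 9 were higher and 6 lower (median 0.10), with medians of -0.56 against the dentate gyrus, 1.96 against the cerebellum and -0.40 against interneurons. Within batch 1 12 were higher and 3 lower (median 0.75). Of 15 GABA receptor genes 8 were higher and 6 lower (median 0.11), with medians of -0.14, 0.50 and 0.11 in the same order. Gria1, an AMPA receptor subunit, was at 276, 250.5 and 273 CPM in layer V neurons against means of 1431 CPM in the dentate gyrus, 1547 CPM in interneurons and 10 CPM in the cerebellum. Its log2 fold change of -0.08 did not pass the test (adjusted p = 0.15, edgeR) and was 1.13 within batch 1. Of 7 metabotropic glutamate receptor genes 5 were higher and 2 lower. Grm3, a group II receptor, was set apart as higher at 33.7, 28.9 and 25.7 CPM against means of 8.51 CPM or less.

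Among proteins of vesicle release, 18 of 36 genes were higher and 13 lower (median 0.11), but Stx1a and Doc2a stood apart. Stx1a, the plasma membrane SNARE syntaxin 1A, was at 622, 618 and 571 CPM in layer V neurons against 65.4, 83.7 and 105 CPM in the dentate gyrus, 66.1, 63.5 and 63.3 CPM in interneurons and 3.12, 2.76 and 2.9 CPM in the cerebellum (margin 2.83). Doc2a, a calcium sensor of spontaneous and asynchronous release, was at 122.8, 119 and 117 CPM against at most 23.3 CPM (margin 2.56). Of 36 genes of calcium-calmodulin and postsynaptic signalling 25 were higher and 6 lower (median 0.75). Their medians were -0.13 against the dentate gyrus, 0.79 against the cerebellum and 0.98 against interneurons. Their sum was 32186 to 33464 CPM in layer V neurons, below the 36219 to 37751 CPM of the dentate gyrus. Nrgn, the calmodulin-binding protein neurogranin, was at 4197, 4449 and 4032 CPM against 2414, 2717 and 2338 CPM in the dentate gyrus, 122.6 to 147 CPM in interneurons and 0.652 CPM on average in the cerebellum. Camk2a, the alpha subunit of calmodulin kinase II, was at 4493, 4471 and 4476 CPM, below the dentate gyrus at 7877, 8088 and 7679 CPM. Of 17 calcium-binding protein genes 14 were higher and 2 lower. S100a10, a partner of annexin A2 and a mark of corticostriatal layer 5 cells, was at 47.1, 47.4 and 44.97 CPM against means of 3.68 to 7.34 CPM.

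Axonal cytoskeleton genes included 15 higher and 11 lower of 28, and 8 were set apart as higher. Nefm, the medium neurofilament chain, was at 751, 740.2 and 791 CPM against means of 425, 211 and 108 CPM in dentate gyrus, interneurons and cerebellum. Nefh, the heavy chain, was at 144, 139 and 154 CPM, above the dentate gyrus (35.4 CPM) and below interneurons (266 CPM). Stmn1, which binds tubulin dimers, was at 1313, 1333 and 1263 CPM against means of 241.9 to 409.7 CPM (log2 fold change 2.06, standard error 0.05, adjusted p = 5.7e-13, edgeR), and Basp1, a growth cone protein, at 1141, 1192 and 1124 CPM against means of 514 CPM or less. Of 61 axon guidance genes 31 were higher and 26 lower (median 0.14), with Ephb6, an ephrin receptor, at 187, 180.3 and 161 CPM against means of 64.7 CPM or less. Of 16 classical cadherin genes 9 were higher and 4 lower. Cdh6 was at 48.4, 46.04 and 45.7 CPM against means of 14.3, 5.55 and 0.5375 CPM in interneurons, dentate gyrus and cerebellum.

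In metabolism, 18 of 22 cholesterol synthesis genes were called higher and 3 lower (median 0.49), and 5 were set apart as higher. Hmgcs1, a synthase of this pathway, was at 396, 372 and 367 CPM against means of 60.7, 121 and 218 CPM in dentate gyrus, cerebellum and interneurons (log2 fold change 1.69, standard error 0.09, adjusted p = 2.2e-09, edgeR). Of 19 glycolysis genes 15 were higher and 1 lower (median 0.35), and by limma on TPM 8 were higher and 5 lower (median 0.10). Ldha, lactate dehydrogenase A, was at 442, 438 and 429.8 CPM against means of 180, 201.1 and 128 CPM in dentate gyrus, cerebellum and interneurons. Of 20 aminoacyl-tRNA synthetase genes, whose enzymes charge tRNAs, 6 were higher and 12 lower (median -0.21). Eprs, the glutamyl-prolyl synthetase, was set apart as lower at 42.3, 40.8 and 42.7 CPM against means of 80.7, 129 and 63.5 CPM.

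Ribosomal protein and oxidative phosphorylation genes were called higher more often than genes at large, and transcript length moved with them. Of 78 cytosolic ribosomal protein genes 71 were higher and 2 lower (median 0.44), and of 81 nuclear oxidative phosphorylation genes tested (of 84 listed) 64 were higher and 8 lower (median 0.40), with 3 of 13 mitochondrially encoded genes higher and 1 lower. Against dentate gyrus, cerebellum and interneurons the medians were 0.14, 0.79 and 0.33 for ribosomal proteins and 0.61, 0.42 and 0.08 for nuclear oxidative phosphorylation. The ribosomal protein sum, 8506 to 9117 CPM, overlapped the dentate gyrus at 8207 to 9121 CPM. The nuclear oxidative phosphorylation sum, 12233 to 12745 CPM, overlapped interneurons (12458 to 13353 CPM) and the cerebellum (12627 to 13144 CPM). By limma on TPM 45 and 40 genes of the 2 nuclear lists were higher and 7 and 19 lower. Rpl41 was at 159.8, 173 and 166 CPM against means of 104, 47.5 and 88.6 CPM in dentate gyrus, cerebellum and interneurons. The median lengths of these 2 nuclear lists were 486 and 471 bases. Genes were grouped by length where they were protein coding with a mean of at least 1 CPM. Among all 284 such genes of under 500 bases the median log2 fold change was 0.47, with 226 higher and 17 lower. The 40 ribosomal protein genes among them had a median of 0.53, the 41 oxidative phosphorylation genes 0.48 and the 203 genes in neither list 0.44, with 147 higher and 16 lower. The median fell with length, from 0.28 at 500 to 1000 bases (1062 genes) to 0.10 at 1000 to 2000 (3243 genes), -0.12 at 2000 to 4000 (5170 genes), -0.33 at 4000 to 8000 (2609 genes) and -0.38 over 8000 bases (291 genes; 83 higher and 166 lower). It fell against each of the 3 types, from 0.43 to -0.58 for the dentate gyrus, from 0.67 to -0.47 for the cerebellum and from 0.28 to -0.18 for interneurons. Within batch 1 it went from 0.54 to -0.52. The part of length in the calls of these lists was not tested.

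**Figure D4:**
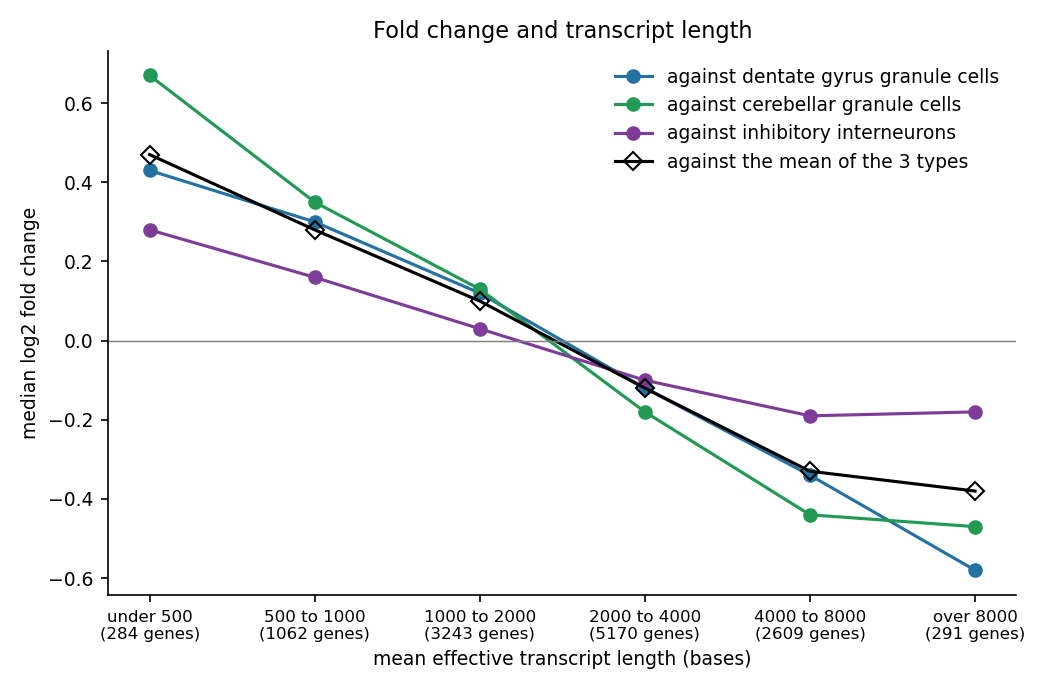
Median log2 fold change of layer V neurons over genes grouped by mean effective transcript length in bases, against each type (coloured lines) and their mean (black diamonds). Genes are protein coding and have a mean of at least 1 CPM. All lines fall from the shortest group, at 0.28 to 0.67, to the longest, at -0.58 to -0.18.

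Transcripts of glia and vessels were present at low levels and differed between types. Of 10 oligodendrocyte markers 10 were called lower (median -1.05), and their sum was 357.6 to 388 CPM in layer V neurons, 448.7 to 546 in the dentate gyrus, 198 to 226 in the cerebellum and 3396 to 3592 in interneurons. Within batch 1, without the interneurons, 5 were higher and 1 lower. Of 10 astrocyte markers 4 were higher and 3 lower, and their sum was 523 to 551 CPM in layer V neurons, 229 to 465 CPM in the other neurons and 37164 to 41724 CPM in astrocytes. Most of the layer V sum was Slc1a2, at a mean of 422.8 CPM. It was at 277.9, 68.54 and 183.1 CPM in dentate gyrus, cerebellum and interneurons. Aldoc, at 58.96 CPM, was above the dentate gyrus (29.38 CPM) and below cerebellum and interneurons (129.8 and 142.1 CPM). Aldh1l1, the defining astrocyte enzyme, was set apart as higher at 35.7, 36 and 34.2 CPM against at most 5.02 CPM in the other neurons and 652 CPM in astrocytes. S100b was set apart as higher at 79.9, 77.5 and 74.7 CPM, and Sox9 at 10.6, 11.2 and 8.96 CPM, while Aqp4, the astrocyte water channel, was set apart as lower at 2.83, 3.32 and 2.79 CPM against means of 6.55 to 6.95 CPM. The markers of astrocytes thus did not move together. Of 10 microglia markers 10 were called higher (median 1.26), yet their sum was 21.01 to 24.3 CPM in layer V neurons, 29.2 to 30.3 CPM in interneurons and 41973 to 45139 CPM in microglia. The part of glial RNA in the genes set apart was not tested. Of the 581 higher genes, 483 had all layer V libraries above the 3 astrocyte libraries and 506 above the 3 microglia libraries.

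Codon use of the translated mRNA shifted toward codons that end in G or C. Each of 61 sense codons was counted over the coding sequences of the transcripts, weighted by TPM, and its percent compared by limma. In layer V neurons 26 codons were used more (42.6%) and 32 less (52.5%), at an adjusted p of 0.05 over the 61. Of 30 codons ending in A or T, 1 was used more and 29 less. Of 31 ending in G or C, 25 were used more and 3 less. These calls are against the mean of the 3 types, and not every codon moved so against each type. CCC and CCG, called used more, made up 1.8380% and 0.6641% of codons in layer V neurons against 1.8643% and 0.6714% in the dentate gyrus. ATT and GAT, called used less, each had a log2 fold change of 0.013 against the dentate gyrus. Codons ending in G or C made up 61.3% to 61.6% of codons in layer V libraries, against 60.6% to 60.9% in the dentate gyrus and in interneurons and 59.1% to 59.5% in the cerebellum, so that no layer V library overlapped another neuron. Astrocytes, at 61.2% to 61.4%, did overlap. The largest decreases were those of TTA (leucine), with a log2 fold change of -0.136 (standard error 0.013, adjusted p = 1.8e-06, limma), ATA (isoleucine), at -0.106 (standard error 0.014), and AGA (arginine), at -0.086 (standard error 0.007). TTA made up 0.5196% of codons in layer V neurons against 0.5578%, 0.6048% and 0.5521% in dentate gyrus, cerebellum and interneurons. The largest increases were those of GCG (alanine), at 0.094 (standard error 0.005, adjusted p = 6.9e-08, limma), CGC (arginine), at 0.089, and GGC (glycine), at 0.055. GCG made up 0.8091% of codons against 0.7777%, 0.7244% and 0.7738% in the same order. The codons are not independent, since their percents sum to a whole.

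**Figure D5:**
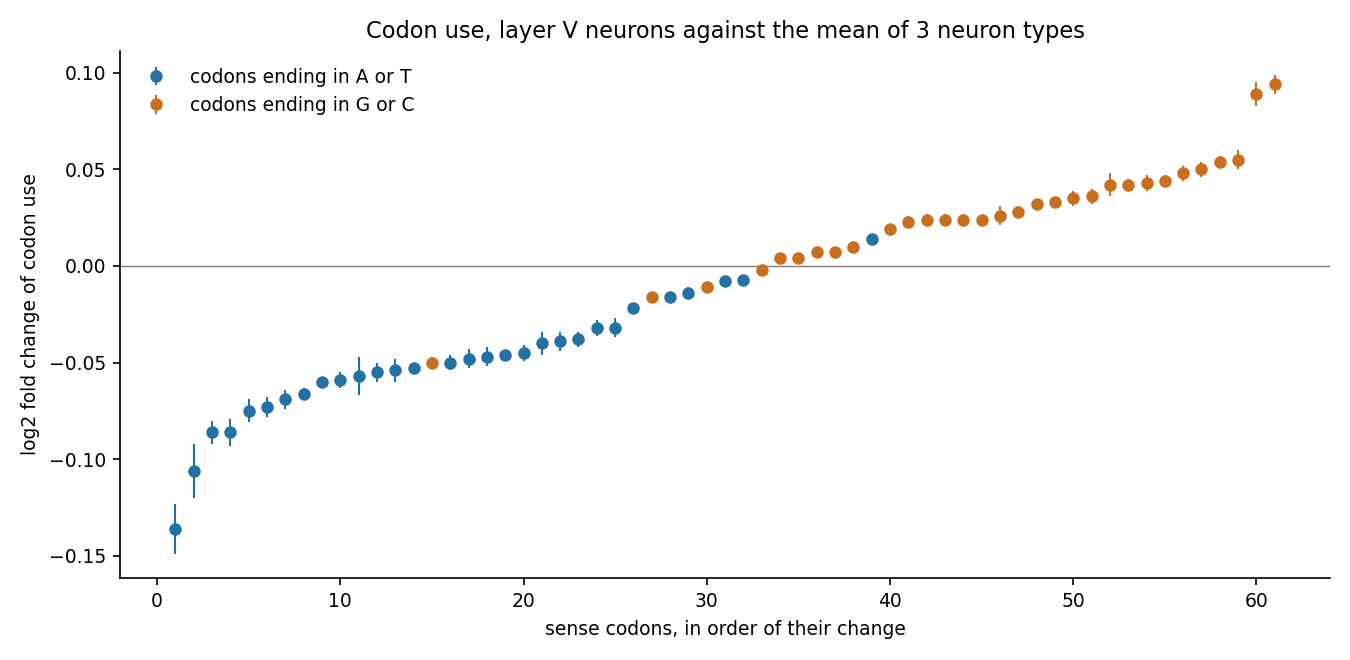
Log2 fold change of the use of each of 61 sense codons in layer V neurons against the mean of the 3 types, in order of size. Points are limma estimates and bars their standard errors, coloured by the codon's last base. Codons ending in A or T lie mostly below 0 and codons ending in G or C mostly above, within -0.136 to 0.094.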

How the data were processed

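Ribosome-bound polyA RNA of 6 brain cell types was sequenced in 22 stranded libraries. Reads were trimmed by the authors (cutadapt 3.5) and assigned to GENCODE transcripts of GRCm38 by kallisto 0.46.2 (versions per the submitters' processing notes). The authors deposited estimated counts per transcript, not normalized, and TPM, which sums to the same total in every library. Estimated counts were summed per gene and rounded. Of 55385 genes, 34838 had a count in the 12 libraries and 18587 passed edgeR's expression filter.

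Layer V neurons were set against the mean of the 3 other types by edgeR 4.0.16 (quasi-likelihood, TMM; R 4.3.3), with Benjamini-Hochberg adjustment over all genes tested. The authors' own test, sleuth, was not run. Standard errors are the fold change over the square root of F. The alternatives were DESeq2 1.42.0, limma 3.58.1 on log2(TPM + 1), other scalings, filters, batches and libraries, the replicate number as a block, and fits without each replicate. Codon percentages (limma) used coding sequences of the mouse GENCODE release M21, while the paper names another release for its transcripts. Of 59252 protein-coding transcripts, 58397 had the same versioned identifier in M21. Full-length coding sequences were found for 44596, which covered 68.3% to 79.1% of TPM. Tables and figures were made in Python 3.11.15 with numpy 2.4.6, pandas 2.3.3 and matplotlib 3.10.9. Levels in glia and in repeat runs are on TMM factors of all 22 libraries.

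The libraries compared, the 36 gene lists and the motifs were chosen with earlier results of these data known. The genes named are the 12 higher and 12 lower with the largest margin, Bcl11b and Etv1, up to 5 members of each list by fold and 2 by level, and the genes that check labels, but some of these are not reported here. Others were named after their values were seen: Mir6236 and the 4 non-coding genes beside it, the overlapping Cpne1, Rbm12 and Nfs1, and Lratd2, Slco2a1, Whrn and Cux2. On simulated counts the test recovered 79 of 100 genes changed by 1 log2 unit and 90 of 100 changed by 2, and called 8 of the unchanged genes among 18587. These counts gave all types a common mean for each gene, apart from the changed genes, which were balanced between up and down. In the data far more genes were called and the other types differed from each other. The simulation therefore does not show the rate of false calls in the data. Among 61 simulated codon percentages, 20 were shifted by many times the spread between layer V libraries. The codon test recovered 20 of these 20 and called 0 unchanged ones. A shift that large makes recovery nearly certain, so the result does not show how smaller shifts would fare. Labels call the replicates separate, but do not tie each to 1 animal, so p-values measure the spread between libraries. Molecular identifiers were not used, so the limit of 3 counts covers counting error only.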

Additional observations from a re-analysis of the deposited data

Results flagged for a closer look

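The library of layer V replicate 1 in batch 2, labelled male, held 12.13 CPM of Xist, the transcript of the inactive X chromosome, while the other 12 libraries labelled male held at most 0.17 CPM. It held 0.04 CPM of the Y-linked Ddx3y against at least 26.08 CPM in those libraries. The batch 1 library of the same replicate, labelled female, held 12.41 CPM of Xist. The library was singled out because it lies outside the 12 compared and shows a signal that male libraries lack. The label of the batch 2 library thus goes against its transcripts.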

How the results depend on the processing

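By limma on log2(TPM + 1), 4545 genes were higher instead of 7354, and 730 instead of 1666 were set apart as higher (726 of them the same genes). Within batch 1, without the interneurons, 2615 genes were set apart as higher and 1718 as lower, against 1666 and 905, and 1604 and 872 of the reported genes were among them. These libraries are fewer, so that fewer have to be cleared. The other alternatives stayed within 1.5 times the reported counts. Leaving out each of the 12 replicates in turn gave 6960 to 7505 higher and 5962 to 6501 lower genes, 1696 to 1818 and 923 to 1017 set apart, and 24 to 27 codons used more with 32 used less. With the replicate number as a block, 7298 genes were higher and 6338 lower, 1665 and 903 were set apart, and 27 codons were used more and 32 less. Deviations of same-numbered libraries correlated at -0.134 to 0.178 over 18 pairs. With 3 libraries per type, this cannot show whether libraries of the same number share an animal. The layer V and dentate gyrus libraries compared carried the same sex label at each number. Log2 fold changes turned sign by limma on TPM for C1ql2 (-0.13), Csf1r (-0.21), Grin1 (-0.09), Ncald (-0.28), Rasgrf2 (-0.06), Rpl3 (-0.16), Rpl4 (-0.11), Scn3a (-0.10), Sema7a (-0.16), Slc17a8 (-0.78) and Zbtb18 (-0.29). Within batch 1 they did so for Etv1 (-0.62), Gria1 (1.13), Mbp (0.34), Mog (0.67), Ncald (-0.04), Sema7a (-0.16) and Zbtb18 (-1.37), and with counts rebuilt from TPM and length for Map1b (0.08) and Ncald (-0.02). The median over all genes was -0.16 on the TPM scale against 0.05, and 9 of 36 list medians changed sign there, those of interneuron markers (from 0.63 to -1.26), mitochondrially encoded genes (-0.19), sodium channels (-0.28), ionotropic glutamate receptors (-0.12), GABA receptors (-0.02), axon guidance (-0.16), axonal cytoskeleton (-0.13), release proteins (-0.16) and astrocyte markers (-0.11). The number of genes called higher moved by more than 1.5 times for 10 lists there, to 3 from 8 for interneuron markers, 6 from 10 for microglia markers, 0 from 4 for endothelial and mural markers, 2 from 6 for transmitter identity, 3 from 5 for HCN channels and partners, 0 from 6 for tRNA synthetases, 8 from 15 for glycolysis, 40 from 64 and 1 from 3 for nuclear and mitochondrial oxidative phosphorylation and 45 from 71 for ribosomal proteins. The interneuron marker median was -0.28 with types at 0 set to 3 counts. The cause of these changes was not tested. Depth limits genes near 0 in a type, 631 of those tested being at 0 in all libraries of at least 1 type.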
